A study of Saccharomyces cerevisiae with 8 samples.

Results

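The introns described here are those of 36 *Saccharomyces cerevisiae* genes for proteins of the small (40S) ribosomal subunit. They were chosen as a list of genes by a rule that uses no measured value, and 9 tested introns of other small-subunit genes were left out of it. The deposited counts hold 297 introns of nuclear protein-coding genes, of which 255 had enough counts to be tested, and all 36 were among them. Of the 36, 31 interrupt the coding sequence (CDS) and 5 lie in the 5′ untranslated region (UTR), namely those of *RPS25A*, *RPS26A*, *RPS26B*, *RPS29A* and *RPS29B*. They include both copies of 17 duplicated genes, 1 copy of *RPS25*, and the single-copy gene *RPS13*.

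Strain BY4741, a haploid laboratory strain, was grown in YPD, a rich glucose medium, and total RNA was depleted of ribosomal RNA and sequenced. In 7 cultures the salt LiCl, which stresses cells by its cation and by osmolarity, and cycloheximide, which blocks the large ribosomal subunit, were combined along an antiparallel gradient intended to hold growth inhibition at 50%. This isobole began with cycloheximide only (point 1), went through mixtures with rising LiCl (points 2 to 6) and ended with LiCl only (point 7), while the remaining culture had no drug and was started from fewer cells so that its density at harvest would match the others. Each condition was 1 library of 1 culture, so no difference between 2 libraries has a replicate check. Drug concentrations were not used here. CDS counts ranged between 13693401 and 28042336 per library, and the 36 introns together had 19932 counts in LiCl only and between 3188 and 7363 at points 1 to 6, against 1708 without drug. Because the RNA came from whole cultures, fewer cells of a kind and less RNA per cell cannot be told apart, and neither can an equal change in all cells and a larger one in some.

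An intron is removed from its transcript by the spliceosome, which recognises a 5′ splice site, a branch point sequence upstream of the 3′ end, and an AG at the 3′ splice site. In yeast most genes have no intron, and ribosomal protein genes are the main exception. Because these genes are among the most highly transcribed, their transcripts make up a large share of all splicing. Most proteins of the small subunit are encoded by a pair of gene copies left over from an ancient genome duplication, with similar coding sequences and introns that have diverged.

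The sequences below, from the RefSeq annotation of genome build R64, are of the 3 introns whose retention differed most between LiCl only and no drug (*RPS0B*, *RPS7A* and *RPS13*) and of *RPS27A* and *RPS18A*, which were among the 3 whose retention differed least. They are shown so that the splicing signals at both ends of this range can be read side by side. The first lines give the first bases of each intron, 5′ to 3′ on the gene's strand, with the 5′ splice site in capitals.
RPS0B: GTATGTacacatatcccata
RPS7A: GTATGTtattaatttgaatc
RPS13: GTATGTttattaacaccata
RPS27A: GTATGTtagtatccaataaa
RPS18A: GTATGTttattattactagt

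The next lines give the branch point region of the same introns, with the branch motif TACTAAC in capitals.
RPS0B: aacgctctTACTAACataattta
RPS7A: atcaaactTACTAACattttcct
RPS13: cttcatgtTACTAACattcgata
RPS27A: aggaagttTACTAACagttagat
RPS18A: acatttttTACTAACgtttatca

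All 5 introns begin with GTATGT and contain TACTAAC, so neither motif sets these introns apart from each other. Their positions are chrXII:242322-242680 (*RPS0B*), chrXV:505938-506338 (*RPS7A*), chrIV:579479-580017 (*RPS13*), chrXI:158616-158966 (*RPS27A*) and chrIV:1359970-1360404 (*RPS18A*), all in the CDS on the plus strand.

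Among the 36 introns, 27 begin with GTATGT, 6 with GTACGT and 3 with GTATGA. The first of these starts opens 75.0% of the 36 introns and 72.5% of all 255 tested introns. TACTAAC, searched on the gene's strand, occurs in 35 of the 36 (97.2%) and in 84.3% of all tested introns, and the intron without it is that of *RPS21A*. The introns are long for yeast, between 256 and 551 bases with a median of 401, against a median of 275 over all tested introns. Large-subunit introns were similar in both respects, with a median of 403 bases and TACTAAC in 94.7%. No 50-base window of any of the 36 introns occurs elsewhere in the genome, so reads that lie inside them are not shared between copies. The median log2 difference in retention between LiCl only and no drug was 2.81 for the introns with GTATGT, 2.70 for those with GTACGT and 2.52 for those with GTATGA. The ranges overlapped, at 1.42 to 4.79, 2.11 to 3.15 and 2.05 to 3.53 in the same order, and no test was made between these groups.

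Intron retention was measured as the intron/CDS ratio, the read density of the intron (counts per base) divided by that of the CDS in the same gene. A ratio of 1 would mean equal read density in intron and CDS. Intron counts do not separate unspliced transcripts from excised introns, and which of them contributed was not tested here. The study itself examined reads that cross the ends of introns, and it reports that introns stayed within transcripts under LiCl. In all 36 genes the ratio was highest in LiCl only among the 8 libraries, and in 33 it was lowest in cycloheximide only. The median ratio over the 36 introns was 0.00678 without drug, 0.00535 in cycloheximide only, 0.00949, 0.00832, 0.0113, 0.0150 and 0.0248 at points 2 to 6, and 0.0455 in LiCl only. The median thus lay below the drug-free value in cycloheximide only and above it at points 2 to 7.

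Pooled over the 36 genes, the share of intron counts among intron and CDS counts was 4.48% (95% Wilson interval 4.42% to 4.54%) in LiCl only and 0.515% (0.500% to 0.531%) in cycloheximide only, against 0.661% (0.630% to 0.693%) without drug. These intervals cover counting error only. The number of introns with a higher ratio than without drug was 3, 29, 25, 29, 33, 36 and 36 at points 1 to 7. A ratio more than 2-fold above that without drug was reached by 0 introns in cycloheximide only, 19 at point 5, 31 at point 6 and 36 in LiCl only. The median log2 difference from no drug at points 5 to 7 was 1.03, 1.87 and 2.77 for the 36 introns. Large-subunit introns took a similar course, at 1.00, 1.97 and 2.79, and the medians over all tested introns were 0.67, 1.11 and 1.66.

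**Figure D1:**
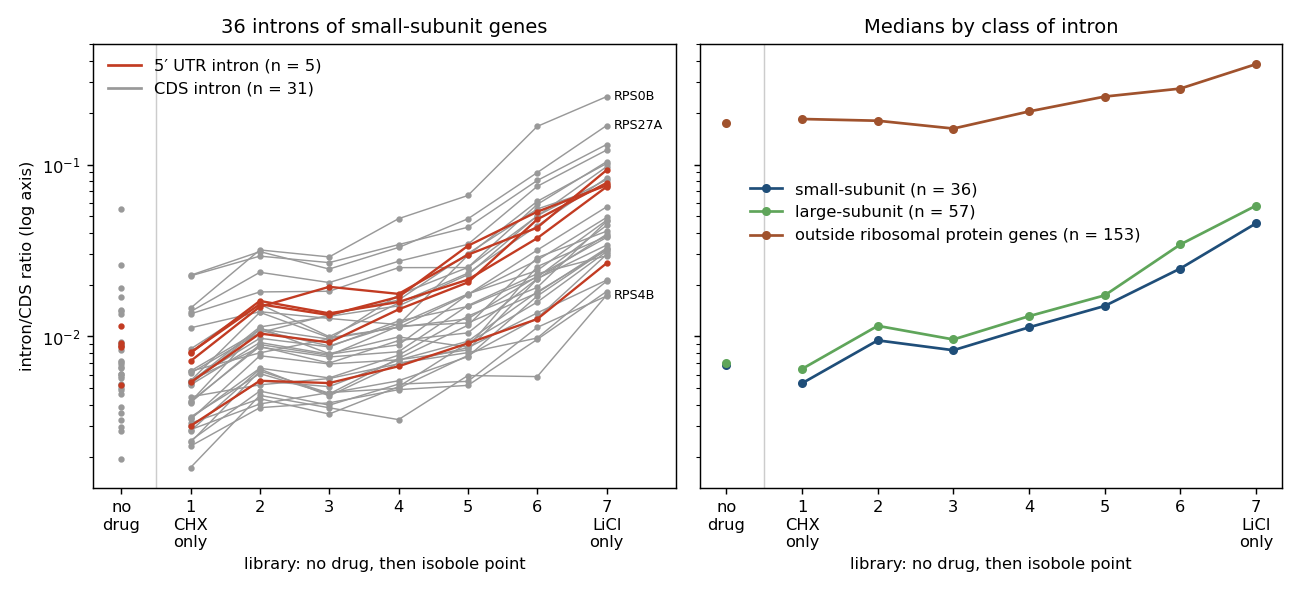
Intron/CDS ratio (log axis) in the library without drug and at isobole points 1 to 7. On the left each line is 1 of the 36 introns, with 5′ UTR introns in red. On the right are medians of the small-subunit introns, the large-subunit introns and the introns outside ribosomal protein genes. The small-subunit median was 0.0455 in LiCl only, against 0.00678 without drug. CHX is cycloheximide.

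LiCl only was first set against no drug. All 36 introns had a higher ratio in LiCl only by Fisher's exact test on intron and CDS counts (Benjamini-Hochberg adjusted over the 255 introns), where 67.5% of all tested introns were called higher and 1.96% lower. This test compares the 2 libraries and covers counting error only. The log2 difference had a median of 2.77, or 6.82-fold, and lay between 1.42 (*RPS18A*) and 4.79 (*RPS0B*), and 32 introns differed at least 4-fold. The median was 2.79 for 57 introns of large-subunit genes, 0.96 for 153 introns outside ribosomal protein genes and 1.66 over all 255. In a fit of edgeR over the 8 libraries, with a slope along the isobole and a term for no drug, the 36 introns again passed, at a median fitted difference of 2.42 and an adjusted p of up to 0.0490 for a single intron, where 52.9% of all tested introns were called higher.

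*RPS0B* (YLR048W) had the largest difference of the 36. Its protein, Rps0, is needed for the last steps of 40S maturation. The intron/CDS ratio of *RPS0B* was 0.00897 without drug, 0.0146 in cycloheximide only, 0.0319, 0.0290, 0.0484, 0.0660 and 0.167 at points 2 to 6, and 0.248 in LiCl only, so it stood above the drug-free level at every isobole point. The log2 difference was 4.79 ± 0.25 (counting SE) between LiCl only and no drug, with 1777 intron counts in LiCl only and 35 without drug (adjusted p = 9.7e-266, Fisher's exact test). Its copy *RPS0A* (YGR214W), at chrVII:920665-921119, had a lower ratio in all 8 libraries, namely 0.00689 without drug, 0.00543 in cycloheximide only, 0.0114, 0.0131, 0.0151, 0.0229 and 0.0504 at points 2 to 6, and 0.0817 in LiCl only. The difference was 3.57 ± 0.31 for *RPS0A*, among the 5 largest, on 531 intron counts in LiCl only and 22 without drug.

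*RPS7A* (YOR096W) and *RPS13* (YDR064W) followed *RPS0B*. Rps7 sits in the body of the subunit and takes part in early processing of its ribosomal RNA, and Rps13 is a core protein of the body. *RPS7A* had a ratio of 0.00668 without drug, 0.00528 in cycloheximide only, 0.0111, 0.00964, 0.0175, 0.0252 and 0.0586 at points 2 to 6, and 0.104 in LiCl only. In cycloheximide only it lay below its drug-free value, and from point 2 on above it. The difference between LiCl only and no drug was 3.96 ± 0.22 for *RPS7A*. *RPS13*, the one single-copy gene of the 36, had a ratio of 0.00903 without drug, 0.0139 in cycloheximide only, 0.0236, 0.0206, 0.0274, 0.0343 and 0.0747 at points 2 to 6, and 0.121 in LiCl only. It was above the drug-free level throughout, with a difference of 3.75 ± 0.15 in LiCl only.

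*RPS27A* (YKL156W) and *RPS18A* (YDR450W) were among the 3 smallest differences. Rps18 belongs to the head of the subunit, and Rps27 is a zinc-binding protein of the body. *RPS18A* had a ratio of 0.0141 without drug, 0.00628 in cycloheximide only, 0.00803, 0.00970, 0.0113, 0.0127 and 0.0224 at points 2 to 6, and 0.0377 in LiCl only. It was below its drug-free level at points 1 to 5 and above it at point 6 and in LiCl only. The difference between LiCl only and no drug was 1.42 ± 0.16 for *RPS18A*, the smallest of the 36.

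*RPS27A* had the highest drug-free ratio of the 36 and *RPS7B* (YNL096C) the next highest. The ratio of *RPS27A* was 0.0548 without drug, 0.0227 in cycloheximide only, 0.0311, 0.0247, 0.0329, 0.0483 and 0.0897 at points 2 to 6, and 0.168 in LiCl only, and that of *RPS7B*, at chrXIV:443827-444171, was 0.0259 without drug, 0.0225 in cycloheximide only, 0.0293, 0.0269, 0.0342, 0.0432 and 0.0808 at points 2 to 6, and 0.131 in LiCl only. Against no drug, LiCl only differed by 1.62 ± 0.19 for *RPS27A* and by 2.33 ± 0.26 for *RPS7B*, both below the median of the 36. *RPS4B* (YHR203C) and *RPS27B* (YHR021C) had the lowest drug-free ratios. The CDS of the *RPS4* copies share 90.5% of their sequence windows, against 0% for *RPS27*. How many CDS reads were counted for both *RPS4* copies, and whether this lowered the ratio of *RPS4B*, was not tested. The ratio of *RPS4B*, at chrVIII:505248-505516, was 0.00194 without drug, 0.00173 in cycloheximide only, 0.00454, 0.00385, 0.00328, 0.00593 and 0.00584 at points 2 to 6, and 0.0174 in LiCl only, on few intron counts (between 10 and 161 per library). That of *RPS27B*, at chrVIII:148117-148666, was 0.00283 without drug, 0.00242 in cycloheximide only, 0.00630, 0.00468, 0.00553, 0.00764 and 0.0172 at points 2 to 6, and 0.0322 in LiCl only. Their differences between LiCl only and no drug were 3.16 ± 0.46 for *RPS4B* and 3.51 ± 0.22 for *RPS27B*, both above the median. The drug-free ratio that set these introns apart is also the value subtracted in the difference, so neither ranking is independent of the other. Rps4 is an RNA-binding protein of the body.

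Across the 36 introns, Spearman's rho between the drug-free ratio and the log2 difference was -0.25, and between the ratio in LiCl only and that without drug it was 0.82. The order of the introns was thus much the same in both libraries. These values share libraries and are given as a description. Between the 5 largest and the 3 smallest differences, the other introns lay between 1.82 (*RPS10A*) and 3.51 (*RPS27B*).

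**Figure D2:**
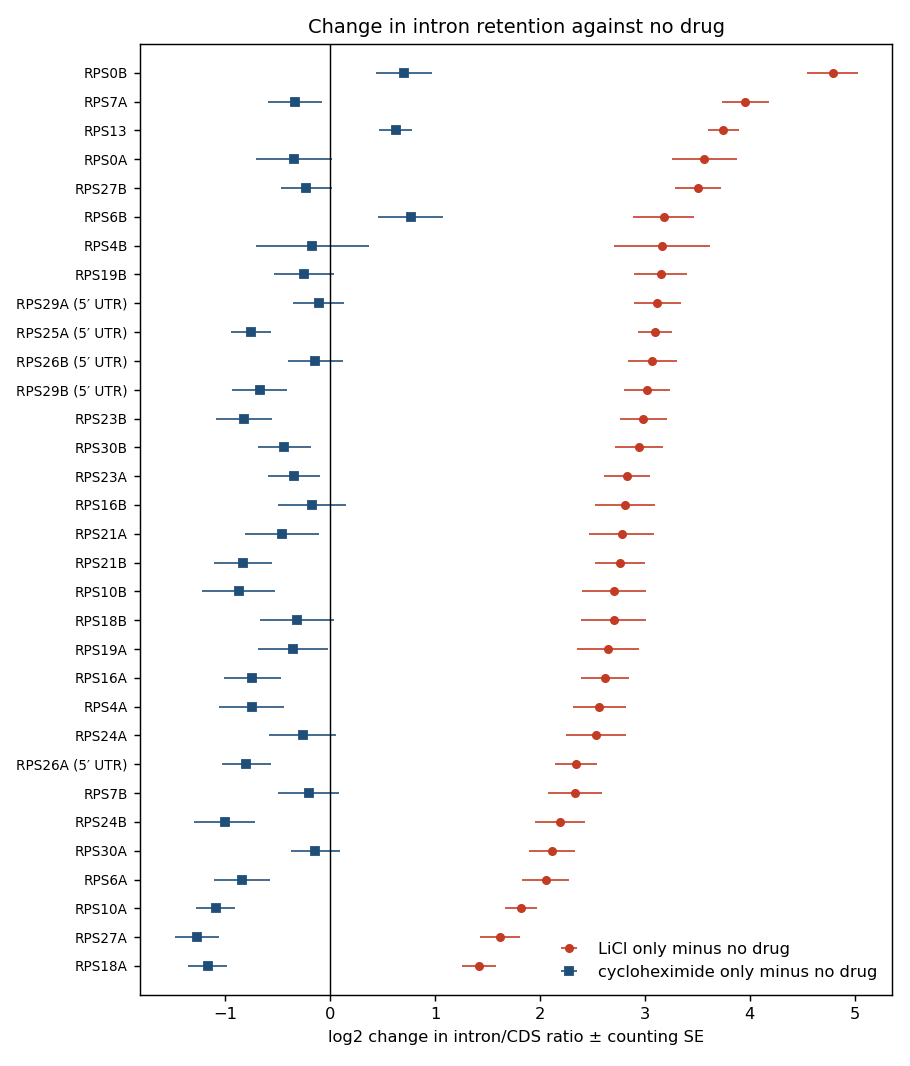
Log2 change in the intron/CDS ratio of 32 of the 36 introns in LiCl only (circles) and in cycloheximide only (squares), each minus no drug. Bars are counting SE, and introns are ordered by the LiCl value. All LiCl values plotted lie above 0, between 1.42 and 4.79, and the cycloheximide values lie between -1.27 and 0.77.

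In cycloheximide only, an inhibitor of translation, 33 of the 36 introns had a lower ratio than without drug and 3 a higher one. A higher ratio was found in 16 of 57 large-subunit introns and in 93 of all 255 tested. The log2 difference had a median of -0.35 over the 36 introns and of -0.17 over all 255. By Fisher's exact test 12 introns were lower in cycloheximide only, where 14.5% of all tested introns were called lower, and 3 were higher, where 6.27% were. The lower ones included *RPS27A* (-1.27 ± 0.21) and *RPS18A* (-1.17 ± 0.19), which were also among the 3 smallest LiCl differences. These contrasts share the no drug library. The 3 higher ones were *RPS6B* (0.77 ± 0.31), *RPS0B* (0.70 ± 0.27) and *RPS13* (0.63 ± 0.16). *RPS6B*, whose protein Rps6 is phosphorylated downstream of TOR signalling, was chosen for naming after seeing its value. The edgeR fit over 8 libraries called 0 of the 36 in either direction and 0% of all tested introns, with 5 of the 36 lower and 0 higher at an unadjusted p under 0.05 (9.02% of all tested introns lower and 0.784% higher), so the calls above hold against counting error only.

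The 2 ends of the isobole have matched growth inhibition by design. All 36 introns had a higher ratio in LiCl only than in cycloheximide only by Fisher's exact test, where 71% of all tested introns were called higher and 1.96% lower. The log2 difference had a median of 3.22, or 9.32-fold, and lay between 2.25 (*RPS30A*) and 4.30 (*RPS7A*). The median over all 255 was 1.62. *RPS30A*, chosen for naming after seeing its value, encodes one of the smallest proteins of the subunit. The spread of the 36 was narrower in this comparison than against no drug, where the range was 1.42 to 4.79.

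The trend along the isobole uses 7 libraries, whose scatter about a line stands in for replicates. With edgeR's quasi-likelihood test, the intron/CDS ratio rose toward LiCl in all 36 genes (adjusted over the 255 introns, of which 64.3% were called rising and 0% falling). The fitted slope had a median of 0.48 log2 per isobole point and lay between 0.36 (*RPS30A*) and 0.69 (*RPS7A*). The median slope was 0.48 for large-subunit introns, 0.15 outside ribosomal protein genes and 0.28 over all tested introns. Without LiCl only, over points 1 to 6, the ratio rose in 35 of the 36 (47.5% of all tested) at a median slope of 0.40, and *RPS4B* did not pass (slope 0.28, adjusted p = 0.0530, edgeR).

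The ratio has 2 parts, and both moved. Levels are CDS or intron counts relative to the total CDS counts of the library (CPM) after TMM scaling. Intron CPM rose toward LiCl in all 36 genes by edgeR (51.8% of all tested introns, with 1.57% falling), at a median slope of 0.29, and CDS CPM fell in all 36 (15.2% of the 6498 genes tested, with 16% rising), at a median slope of -0.18. Per kilobase, the median intron level was 7.83 without drug, 10.2 in cycloheximide only, 14.4, 11.5, 11.6, 16.5 and 26.3 at points 2 to 6, and 42.1 in LiCl only, in CPM per kb. The median CDS level was 1112 without drug, 1894 in cycloheximide only, 1521, 1312, 1103, 1110.0 and 953 at points 2 to 6, and 742 in LiCl only, in CPM per kb. Intron CPM was highest in LiCl only in all 36 genes, and CDS CPM was highest in cycloheximide only in all 36 and lowest in LiCl only in 35. The rise in intron CPM rested in part on LiCl only. Over points 1 to 6 it passed in 14 of the 36 (18.8% of all tested), at a median slope of 0.21, while the fall in CDS CPM passed in all 36 there (7.68% of all genes tested).

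Named genes differed in how much each part contributed. *RPS0B* had intron levels of 7.41 without drug, 18.3 in cycloheximide only, 39.3, 32.9, 45.9, 58.7 and 129 at points 2 to 6, and 166 in LiCl only, in CPM per kb. *RPS7A* had intron levels of 8.34 without drug, 10.7 in cycloheximide only, 17.0, 13.5, 19.8, 29.2 and 63.0 at points 2 to 6, and 94.3 in LiCl only, in CPM per kb. These 2 had the largest intron CPM slopes of the 36, 0.52 ± 0.07 for *RPS7A* and 0.49 ± 0.07 for *RPS0B* (edgeR adjusted p = 5.2e-05 and 5.2e-05). *RPS13* had CDS levels of 1585 without drug, 2525 in cycloheximide only, 2064, 1768, 1419, 1241 and 1026 at points 2 to 6, and 682 in LiCl only, in CPM per kb, the steepest fall of the 36 at -0.29 ± 0.02. Its intron CPM slope was 0.19 ± 0.07 (edgeR adjusted p = 0.0218) and no longer passed when point 1, 3, 6 or 7 was left out. *RPS30A* had the smallest intron CPM slope, 0.15 ± 0.06 (edgeR adjusted p = 0.0421).

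Against no drug, CPM depends on the scaling of the drug-free library. With TMM factors, CDS CPM was lower in LiCl only in 35 of the 36 genes, at a median log2 difference of -0.43, and the exception was *RPS27A* (0.18). With scaling by total CDS counts, chosen after seeing the data, it was lower in 31, at a median of -0.12, while the median over all genes was 0.04 with TMM and 0.34 by total counts. CDS CPM was higher in cycloheximide only than without drug in all 36 under both scalings, at a median of 0.69 with TMM. Intron CPM was higher in LiCl only than without drug in all 36 under both, at a median of 2.24 with TMM. It was higher in cycloheximide only than without drug in 26 of the 36, at a median of 0.32 with TMM, so there the CDS level differed by more than the intron level.

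**Figure D3:**
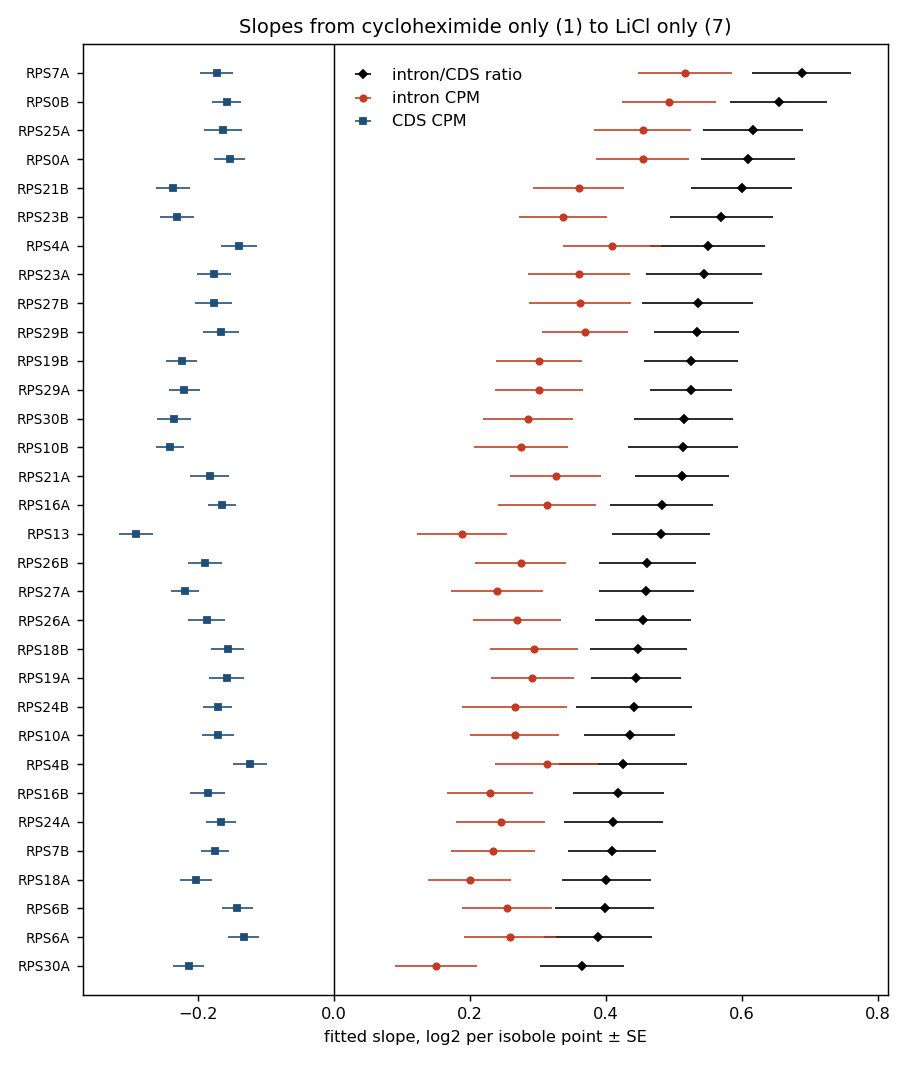
Fitted slopes along the isobole, in log2 per point, for the intron/CDS ratio (diamonds), intron CPM (circles) and CDS CPM (squares) of 32 of the 36 genes, with SE of the edgeR fit, ordered by the slope of the ratio. All intron slopes plotted lie above 0 and all CDS slopes below it, and the medians over the 36 were 0.29 and -0.18.

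The CDS of small-subunit genes without an intron count gives the background for the host transcripts. Of 12 such genes, CDS CPM fell toward LiCl in 10 by edgeR and rose in 0, at a median slope of -0.16. The exceptions were *RPS12* (slope -0.07) and *RPS20* (-0.07), and the steepest fall was that of *RPS3* (-0.31), whose protein lies at the mRNA entry channel. The range of the 36 intron-containing genes was -0.29 to -0.12. The median slope over all 6498 genes was 0.004.

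The 5 introns in 5′ UTRs belong to genes for a zinc-binding head protein (*RPS29A* and *RPS29B*), a protein at the mRNA exit channel (*RPS26A* and *RPS26B*) and a head protein needed for initiation at some viral internal ribosome entry sites (*RPS25A*). Splicing them leaves the encoded protein unchanged. Their median log2 difference between LiCl only and no drug was 3.07, and that of the 31 CDS introns was 2.71. In slope of the ratio the medians were 0.52 for 5′ UTR introns and 0.48 for CDS introns. With 5 introns against 31, the values of the 5 lay inside the range of the 31 for both measures, and no test was made between the classes.

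*RPS29A*, with its intron at chrXII:898158-898645, had a ratio of 0.00871 without drug, 0.00807 in cycloheximide only, 0.0154, 0.0133, 0.0170, 0.0337 and 0.0531 at points 2 to 6, and 0.0757 in LiCl only. *RPS29B*, at chrIV:340811-341219, had a ratio of 0.0114 without drug, 0.00719 in cycloheximide only, 0.0149, 0.0194, 0.0177, 0.0299 and 0.0430 at points 2 to 6, and 0.0928 in LiCl only. Neither copy was the higher one throughout. LiCl only exceeded no drug by 3.12 ± 0.22 in *RPS29A* and by 3.02 ± 0.22 in *RPS29B*.

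*RPS26A*, at chrVII:148599-148966, had a ratio of 0.00525 without drug, 0.00302 in cycloheximide only, 0.00553, 0.00536, 0.00671, 0.00913 and 0.0126 at points 2 to 6, and 0.0267 in LiCl only. *RPS26B*, at chrV:423591-423951, had a ratio of 0.00883 without drug, 0.00801 in cycloheximide only, 0.0161, 0.0136, 0.0159, 0.0214 and 0.0373 at points 2 to 6, and 0.0742 in LiCl only. *RPS26B* was higher in all 8 libraries, while the intron levels per kilobase of the pair were close, with an A to B ratio between 0.995 and 1.36. The CDS levels of the pair lay further apart, at 1679 CPM per kb for *RPS26A* and 607 for *RPS26B* in LiCl only, and at 2261 for *RPS26A* and 989.5 for *RPS26B* without drug. The CDS of the copies share 39.5% of their 50-base windows at up to 2 mismatches, and how many reads were counted for both was not tested. LiCl only exceeded no drug by 2.34 ± 0.20 in *RPS26A* and 3.07 ± 0.23 in *RPS26B*.

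*RPS25A*, at chrVII:534474-534785 on the minus strand, had a ratio of 0.00912 without drug, 0.00541 in cycloheximide only, 0.0104, 0.00923, 0.0144, 0.0206 and 0.0480 at points 2 to 6, and 0.0782 in LiCl only, below its drug-free level in cycloheximide only and above it from point 2 on. The difference between LiCl only and no drug was 3.10 ± 0.16. Its intron begins and branches with the usual signals, shown here because it had the steepest slope of the 5′ UTR introns (0.62 ± 0.07).
RPS25A 5′ end: GTATGTatctataaatttga
RPS25A branch region: cggtttttTACTAACaagtatgt
*RPS25B* also has a 5′ UTR intron but is not one of the 36. The ratio of *RPS25A* over that of *RPS25B* was 0.775 without drug, 0.535 in cycloheximide only, 0.734, 0.693, 1.01, 1.19 and 1.57 at points 2 to 6, and 1.498 in LiCl only, so *RPS25A* was below its copy at points 1 to 3 and above it at points 4 to 7. The slope of this log2 quotient was 0.27 ± 0.03 per point (two-sided exact permutation p = 0.00159, adjusted p = 0.0243 over 46 pairs of ribosomal protein genes).

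The 2 copies of a pair encode nearly the same protein, so their introns can be compared within 1 library. The slope of the log2 quotient of their ratios was tested by exact permutation of the 7 isobole libraries, over all 46 ribosomal protein pairs. Of the 17 pairs with both copies among the 36, 1 was called (6.52% of all 46 pairs), with 4 at an unadjusted p under 0.05, as were 11 of all 46 (23.9%). On intron counts alone, over sequence that is unique to each copy, 1 of 17 was called (8.7% of all pairs), again with 4 at an unadjusted p under 0.05, as were 10 of all 46 (21.7%). The pair was *RPS7* in both tests. In 9 of the 17 pairs the same copy had the higher ratio in all 8 libraries, the A copy in 4 and the B copy in 5. This was not particular to the 17 pairs. Among large-subunit pairs, the A copy was higher in all 8 libraries in *RPL7*, *RPL16*, *RPL19*, *RPL26* and *RPL34*. The B copy was higher throughout in *RPL14*, *RPL17*, *RPL18*, *RPL22*, *RPL24*, *RPL27* and *RPL31*. In others, such as *RPL20* and *RPL35*, neither copy was higher throughout.

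In *RPS7* the B copy had the higher ratio throughout, but the copies approached each other toward LiCl. The ratio of *RPS7A* over that of *RPS7B* was 0.257 without drug, 0.235 in cycloheximide only, 0.377, 0.359, 0.510, 0.584 and 0.726 at points 2 to 6, and 0.794 in LiCl only. The slope of the log2 quotient was 0.28 ± 0.03 per point (two-sided exact permutation p = 7.9e-04, adjusted p = 0.0243). On intron counts per base, *RPS7A* over *RPS7B* was 1.08 without drug, 0.991 in cycloheximide only, 1.35, 1.23, 1.77, 2.13 and 2.84 at points 2 to 6, and 3.17 in LiCl only. That slope was 0.28 ± 0.03 (exact permutation p = 7.9e-04, adjusted p = 0.0183). Per kilobase, the introns of both copies stood close together in cycloheximide only, and in LiCl only that of *RPS7A* stood at 94.3 CPM per kb and that of *RPS7B* at 29.7. Their CDS share 17.7% of 50-base windows at up to 2 mismatches, so part of their CDS counts may be shared. With 1 of the isobole libraries left out, the slope stayed between 0.25 and 0.30 on the ratio and between 0.27 and 0.30 on intron counts. The call was lost without point 1, 4, 5, 6 or 7 on the ratio (adjusted p between 0.077 and 0.170) and without point 1, 4, 6 or 7 on intron counts (0.064 to 0.128), where the smallest p that 6 libraries allow is 0.00278. A pair alone at that p would have an adjusted p of 0.128 by exact permutation. With 6 libraries a pair can thus pass only if further pairs also have a small p.

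**Figure D4:**
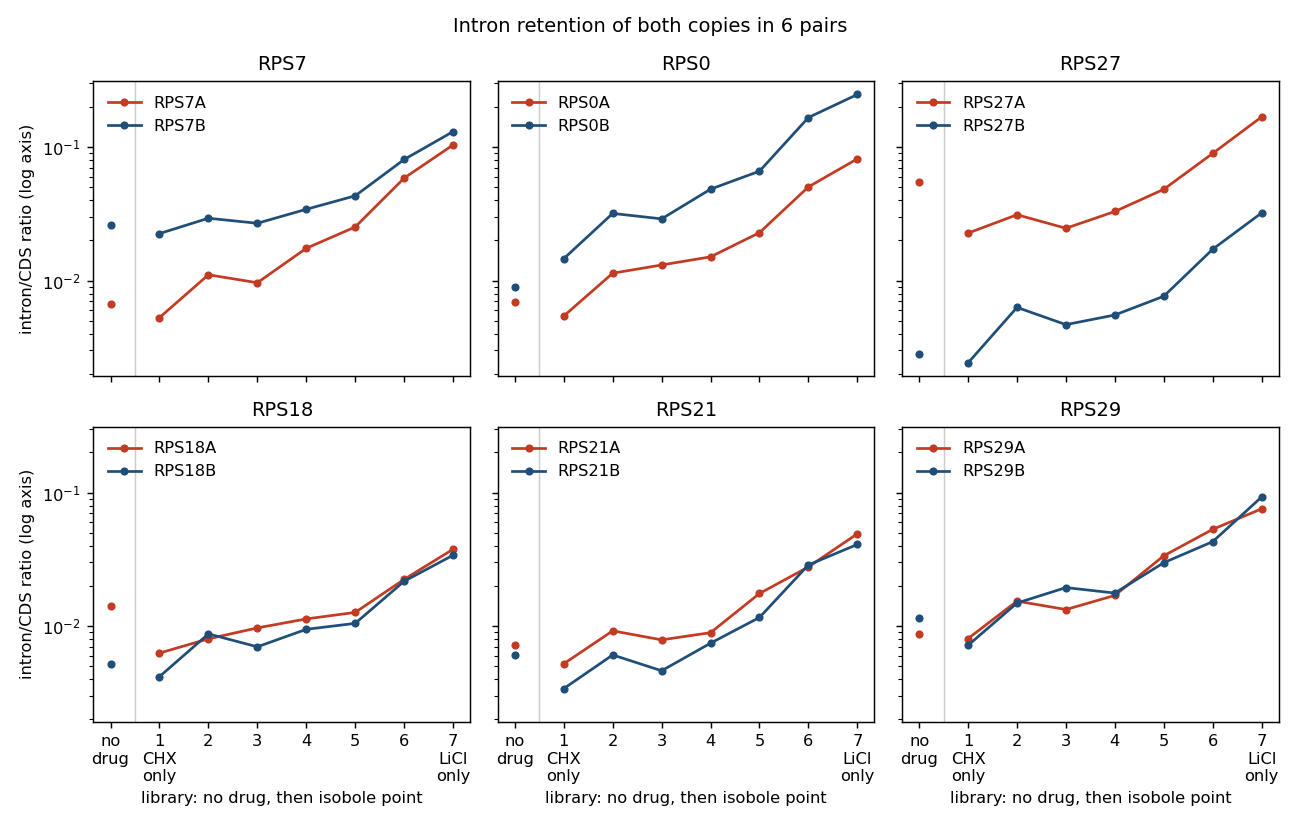
Intron/CDS ratio (log axis) of the A copy (red) and the B copy (blue) in the 4 pairs whose copies differed most in the change between LiCl only and no drug (*RPS7*, *RPS0*, *RPS27*, *RPS18*) and the 2 that differed least (*RPS21*, *RPS29*), without drug and at isobole points 1 to 7. *RPS7A* approached *RPS7B*, with A over B at 0.794 in LiCl only and 0.235 in cycloheximide only. CHX is cycloheximide.

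In the change between LiCl only and no drug, the copies differed by a median of 0.73 log2 units, and the B copy changed more in 12 of the 17 pairs. The 95% counting interval of the A minus B difference lay below 0 in 7 pairs, above 0 in 2, one of them *RPS7*, and included 0 in 8. Among large-subunit pairs the difference was -3.23 ± 0.35 (counting SE) for *RPL36* and 1.94 ± 0.35 for *RPL14*, but -0.12 ± 0.46 for *RPL13*. Differences between copies were thus not particular to the 17 pairs, and the intervals were not counted over the other pairs. The 4 largest differences among the 17 pairs were *RPS27* at -1.89 (95% counting interval -2.45 to -1.32), *RPS7* at 1.63 (95% counting interval 0.96 to 2.29), *RPS18* at -1.29 (95% counting interval -1.98 to -0.60) and *RPS0* at -1.22 (95% counting interval -1.999 to -0.44).

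Outside *RPS7*, no trend along the isobole passed the test for these pairs. The ratio of *RPS27A* over that of *RPS27B* was 19.4 without drug, 9.37 in cycloheximide only, 4.94, 5.27, 5.96, 6.33 and 5.22 at points 2 to 6, and 5.24 in LiCl only. Without drug it was thus about 2 times the highest isobole value, and its slope along the isobole was -0.07 ± 0.06 (exact permutation p = 0.257, adjusted p = 0.422). The *RPS27* copies share 0% of CDS windows, and their CDS levels were 320.3 and 1726 CPM per kb in LiCl only and 282 and 2321 without drug, for *RPS27A* and *RPS27B*. With TMM scaling, *RPS27A* was the only one of the 36 with a higher CDS level in LiCl only than without drug, and with scaling by total CDS counts 5 genes were.

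*RPS18B*, at chrXIII:223381-223781, had a ratio of 0.00521 without drug, 0.00419 in cycloheximide only, 0.00875, 0.00700, 0.00947, 0.0105 and 0.0217 at points 2 to 6, and 0.0340 in LiCl only, on 275 intron counts in LiCl only and 23 without drug. The ratio of *RPS18A* over that of *RPS18B* was 2.71 without drug, 1.501 in cycloheximide only, 0.918, 1.39, 1.20, 1.21 and 1.03 at points 2 to 6, and 1.11 in LiCl only. No trend between the copies passed the test, at a slope of -0.04 ± 0.05 (exact permutation p = 0.409, adjusted p = 0.538). For *RPS0*, A over B was 0.768 without drug, 0.372 in cycloheximide only, 0.357, 0.451, 0.311, 0.346 and 0.302 at points 2 to 6, and 0.329 in LiCl only, with a slope of -0.05 ± 0.03 (exact permutation p = 0.198, adjusted p = 0.380). *RPS0A* had 22 intron counts and *RPS0B* 35 without drug.

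The pairs with the smallest differences were *RPS21*, at 0.02 (95% counting interval -0.75 to 0.79), and *RPS29*, at 0.10 (95% counting interval -0.51 to 0.71). Rps21 takes part in 40S maturation together with Rps0. *RPS21A*, at chrXI:551681-552002 on the plus strand, had a ratio of 0.00717 without drug, 0.00523 in cycloheximide only, 0.00922, 0.00789, 0.00894, 0.0176 and 0.0278 at points 2 to 6, and 0.0492 in LiCl only. *RPS21B*, at chrX:156790-157249 on the minus strand, had a ratio of 0.00604 without drug, 0.00341 in cycloheximide only, 0.00608, 0.00463, 0.00746, 0.0116 and 0.0287 at points 2 to 6, and 0.0409 in LiCl only. The change of *RPS21A*, the intron without TACTAAC, was thus 2.78 ± 0.31, and that of *RPS21B*, which starts with GTACGT and has TACTAAC, was 2.76 ± 0.24. The intervals of both pairs reach 0.79 for *RPS21* and 0.71 for *RPS29*.
RPS21A: GTATGTtcgagaaatctata
RPS21B: GTACGTaaattatagcagat
These are the 5′ ends of both introns, with the 5′ splice site in capitals, printed because the copies of this pair differ in both splicing signals.

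Further pairs passed at an unadjusted p under 0.05 only. The log2 quotient of the ratios had a slope of -0.14 ± 0.04 for *RPS30* and -0.08 ± 0.02 for *RPS19* (exact permutation p = 0.00635 and 0.00794, adjusted p = 0.0522 for both). With a pseudocount of 1, *RPS30* and *RPS19* also passed on the ratio. On intron counts the slope was -0.12 ± 0.04 for *RPS30* (exact permutation p = 0.0214, adjusted p = 0.156) and -0.02 ± 0.03 for *RPS19* (exact permutation p = 0.567, adjusted p = 0.669). The CDS of the *RPS19* copies share 42.0% of 50-base windows. The CDS of the copies share between 0% (*RPS27*) and 100% (*RPS6*) of 50-base windows. Reads aligned to several places were counted at each of them.

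Among features that the choice of genes did not use, intron length had a Spearman's rho of 0.03 with the LiCl only minus no drug difference over the 36 introns, and GC content had -0.13. The distance from the branch point to the 3′ splice site had -0.38 over 35 introns. With the drug-free ratio, rho was 0.56 for GC content and -0.61 for the drug-free CDS level per kilobase. CDS counts are the denominator of the ratio, and all points share the same libraries, so these values are descriptions only.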

How the data were processed

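Ribosome-depleted total RNA of 8 cultures was sequenced as 50-base single-end reads, aligned with TopHat to build R64 and counted by the authors with featureCounts 1.6.2. The deposited values are counts per CDS, intron and 5′ UTR intron, not normalized, without strand and with multiply mapped reads counted, so CDS counts of similar copies are uncertain. Introns with a mean of at least 5 counts and CDS with at least 20 were tested with edgeR 4.0.16 in R 4.3.3, Fisher's exact test and exact permutation (scipy 1.17.1), with Benjamini-Hochberg adjustment over all features tested and a threshold of 0.05. Log2 ratios used a pseudocount of 0.5. The tests were tested on simulated data. With 1 library per condition, p-values between 2 libraries measure counting error only. Introns named in full were the 5′ UTR introns, the largest and smallest differences between LiCl only and no drug, and both copies of the pairs that differed most and least, with additions stated as chosen after seeing values. The rule for the members uses no measured value, but the members and lists were chosen with earlier results of these data known. Alternatives were DESeq2 1.42.0, no filter, total-count scaling, a pseudocount of 1, 5 mixtures only and leaving out each isobole library. Some members entered every count, median and test over the 36 but are not reported here by name.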

Additional observations from a re-analysis of the deposited data

How the results depend on the processing

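No paired analysis was possible because each condition was 1 library and the labels give no shared replicate numbers. In the edgeR fit over 8 libraries the median log2 difference of the 36 introns was 2.42 for LiCl only minus no drug and 2.89 for LiCl only minus cycloheximide only, and 0 introns were called higher and 0 lower for cycloheximide only against no drug (0 higher and 5 lower at an unadjusted p under 0.05, against 0.784% and 9.02% of all tested introns). Leaving out 1 isobole library at a time, the ratio rose in 35 to 36 introns at a median slope of 0.40 to 0.53, and intron CPM rose in 14 to 36 at 0.21 to 0.33, in both cases lowest without point 7. CDS CPM fell in 36 throughout. Pairs called by the quotient of their ratios numbered 3 with a pseudocount of 1, 0 over the 5 mixtures only and 0 to 1 with 1 library left out. By intron counts they numbered 0 over the 5 mixtures and 0 to 2 with 1 library left out, where *RPS18* was added without point 2. The smallest adjusted p for 1 pair alone is 0.128 over 6 libraries and 0.767 over 5, so in these settings no pair could pass alone. With scaling by total CDS counts, chosen after seeing the data, CDS CPM in LiCl only was above no drug in 5 genes at a median difference of -0.12, and CDS CPM in cycloheximide only was above it by a median of 0.98. Intron CPM then exceeded no drug by a median of 2.54 in LiCl only and 0.62 in cycloheximide only, where 3 introns were lower. The cause of these changes was not tested. No median changed its sign under the alternatives run. Of the summary values over all alternatives, 129 stayed within 1.5 times the main count, or within the median SE of a single intron or gene of the main median, and 26 did not, and those 26 are the ones given here, singly or as ranges. Without drug the introns had between 10 and 113 counts each, which limits every comparison with that library.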

Other observations

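The steps along the isobole were uneven. The ratio was higher at point 2 than in cycloheximide only in all 36 introns, at a median log2 difference of 0.88, and higher at point 3 than at point 2 in 8 of 36, at a median of -0.19. It was higher at each later point than at the one before in 33, 35, 35 and 36 introns. By place in the subunit, the 13 introns of genes for head proteins had a median log2 difference of 2.70 between LiCl only and no drug, and the 23 of genes for body and platform proteins had 2.83. Between cycloheximide only and no drug the medians were -0.74 for head and -0.34 for body and platform genes. This grouping is from textbook knowledge of the subunit, and no test was made between the groups.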
